A study of Sus scrofa with 19 samples.

Results

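The genes described here are the solute carriers, membrane proteins that move nutrients, ions and metabolites across the plasma membrane and the membranes of organelles, as measured in pig endometrium. They were chosen by name: every gene whose symbol starts with SLC, a family number, A and a member number, and which has a probe named through RefSeq, was taken, apart from the peptide transporter SLC15A1. Of 78 such genes, 76 had a probe well above background (a mark set for each spot by the scanner software) on at least 4 of 19 arrays, out of 3010 named genes that passed the same filter. SLC2A2 and SLC7A3 were nearest to that limit, with 6 arrays each, and SLC12A1 and SLC10A2 fell outside it, with 1 and 0. Each gene is represented by its brightest probe. The members have 157 probes in all, and 69 of the 76 were well above background on all 19 arrays. The symbols also took in SLC9A3R1 and SLC9A3R2, scaffold proteins that bind a sodium-proton exchanger and carry nothing themselves, which leaves 74 transporters.

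The endometrium lines the uterus and its epithelium faces a fluid that feeds the conceptus before it attaches. Sodium-coupled carriers use the sodium gradient to concentrate sugars and amino acids in a cell. Facilitative carriers let solutes pass down their own gradients, and exchangers swap solutes across the membrane. Members of the SLC25 family serve the inner mitochondrial membrane. In the uterus such proteins set what passes from blood through the epithelium into the lumen, and glucose, amino acids of the arginine family and ions of that fluid have long been studied in pigs around the time of maternal recognition of pregnancy.

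Expression was measured on one-colour arrays in crossbred gilts 8 months old. Cannulas were placed in both uterine horns of all gilts on days 8 to 9, and days 11 to 12 of the cycle held 24 h of infusions, 4 h apart. The hormone group is 6 horns of gilts 36, 38, 40, 41, 44 and 47, each given 200 µg of prostaglandin E2 (PGE2) and 33.3 µg of estradiol (E2) per infusion. The placebo horn group is the other horn of gilts 36, 38, 41, 44 and 47, given only the vehicle, 5 mL of saline with 1% ethanol. Control gilts 9, 14, 28 and 46 had this vehicle in both horns, which gives 4 arrays marked L and 4 marked P, marks whose meaning the labels do not give. Placebo horns were all marked L, and hormone horns P except that of gilt 40. No group went without surgery and infusion, and the placebo horns belong to animals whose other horn received hormones. PGE2 and E2 were always given together, so their effects cannot be told apart.

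Between 79.1% and 88.4% of spots were well above background on each array, and the number of arrays limits the precision of every value below. Values are log2 of the signal over the 75th percentile of its array, where 0 is a signal equal to that percentile, and differences of 1 are 2-fold. Values of different probes are not comparable in level, and none are set against each other here except to rank a gene's probes by signal. The epithelial markers CDH1, EPCAM, CLDN4, KRT8 and OCLN (5 measured of a list of 9) were well above background on every array. CDH1, EPCAM and CLDN4 were higher in hormone horns than in control gilts, by 0.95, 0.69 and 1.36 log2 units, and in placebo horns by 0.96, 0.57 and 1.53 (limma adjusted p from 0.00239 to 0.0417), while KRT8 differed by -0.32 in hormone horns (adjusted p = 0.376). The summed signal of the 5 epithelial markers, in units of the 75th percentile, was 88.6 to 133 in control horns, 108 to 172 in placebo horns and 95.5 to 185 in hormone horns. For 5 of 8 macrophage markers it was 5.59 to 11.8, 10.8 to 191 and 11.2 to 164, with the highest sums in both horns of gilt 47. For 5 of 8 neutrophil markers it was 0.384 to 0.818, 0.21 to 79.9 and 1.15 to 68.2. For 4 of 5 endothelial markers it was 16.9 to 23.7 in control horns, 20.003 to 42.6 in placebo horns and 25.5 to 40.5 in hormone horns, so hormone horns lay above all control horns, and 3 of the 4 rose in hormone horns (VWF by 0.79, ENG by 0.64 and CDH5 by 0.61, list median 0.71). For 3 of 8 stromal markers it was 163 to 237, 219 to 272 and 230.2 to 359, and COL1A2 rose by 0.75. For 3 of 5 smooth muscle markers, none of which passed, the median difference was 0.75 in hormone horns and -0.50 in placebo horns. T and natural killer cell sums were 5.35 to 7.79, 4.35 to 12.7 and 3.27 to 13.5 (9 of 10 markers), and B cell sums 0.098 to 0.141, 0.099 to 0.899 and 0.089 to 0.761 (3 of 5). The T and natural killer cell markers did not move together. Their median difference was 0.71 in hormone horns and 0.86 in placebo horns, while 1 of them passed as lower in hormone horns and 0 as higher. Macrophage markers had median differences of 1.32 in hormone horns (2 passed as higher) and 1.27 in placebo horns (1 passed as higher). For neutrophil markers these were 4.79 (3 passed as higher) and 3.45 (1 passed as higher). Neutrophil sums of hormone horns, like the endothelial ones, lay above those of all control horns. None of the 4 erythroid markers was measured. The part of these cells in the results on solute carriers was not tested, and in bulk tissue fewer cells of a type and less RNA per cell cannot be told apart.

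The first question was how solute carriers of endometrium given PGE2 and E2 differed from those of gilts that had no hormone. Hormone horns differed from control gilts for 9 of 76 solute carriers. SLC3A1, SLC4A4, SLC12A4, SLC25A3, SLC39A7 and SLC44A4 rose, and SLC30A2, SLC25A27 and SLC27A1 fell (limma, adjusted p under 0.05 over all tested probes). They carry amino acids, bicarbonate, chloride, phosphate, zinc, choline and fatty acids, and no substrate class gave more than 2 of them. A share of 11.8% of members passed, and the same share was 11.7% of all probes and 15.5% of named genes, so the family was called about as often as other genes. Of named genes 13.1% passed as higher and 2.43% as lower. The median difference was 0.10 log2 units over the 76 members, 0.01 over all probes and 0.17 over named genes. Positive differences were found for 42 members and negative ones for 34, and 27 members had an unadjusted p under 0.05.

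**Figure D1:**
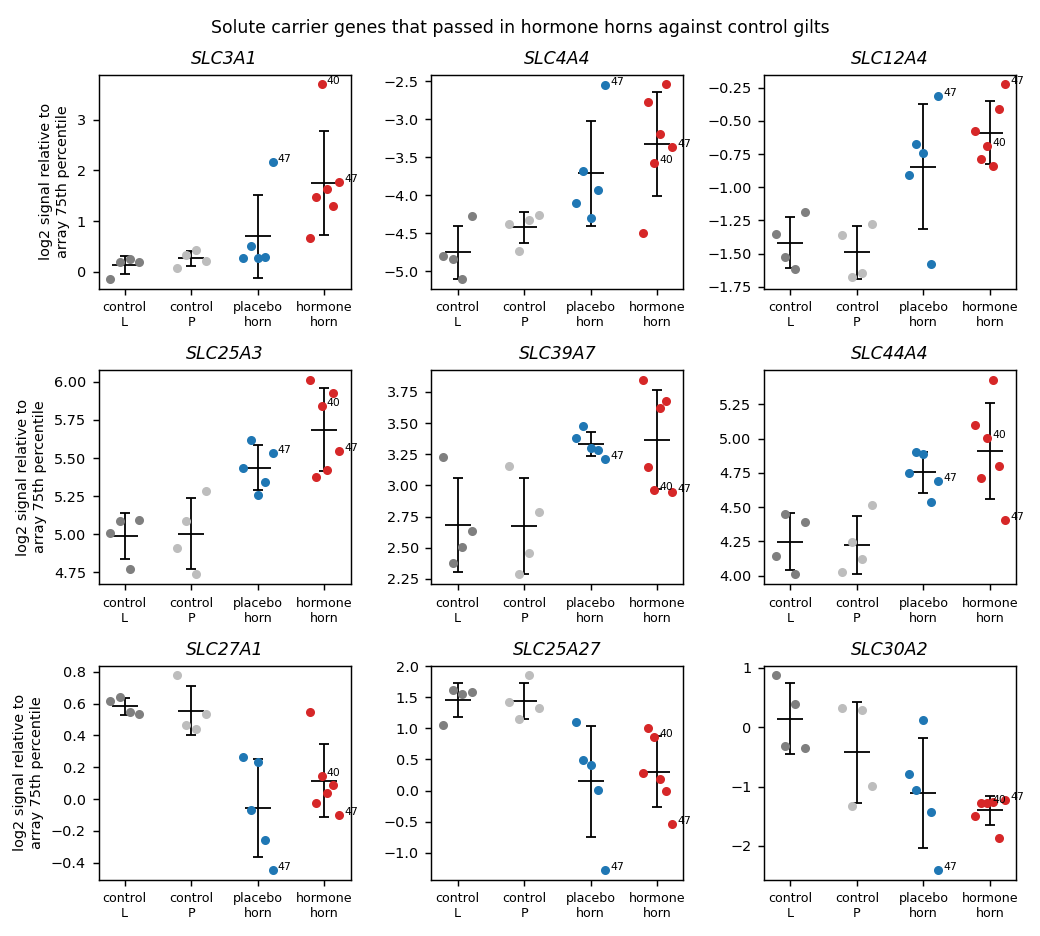
Log2 signal relative to the 75th percentile of the array for the 9 solute carrier genes that passed between hormone horns and control gilts; each point is an array, the bar and whiskers are the mean ± SD of the group, and gilts 40 and 47 are numbered. For SLC3A1, SLC12A4 and SLC25A3 every hormone horn lies above all 8 control horns, and for SLC25A27 every hormone horn lies below them.

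Amino acid carriers held the largest differences of the family in both directions. SLC3A1 is the heavy subunit rBAT, which takes the exchanger subunit SLC7A9 to the membrane for import of cystine and of basic amino acids. SLC3A1 lay between -0.14 and 0.42 in the 8 control horns (median 0.21). In the placebo horns of gilts 36, 38, 41, 44 and 47 SLC3A1 was 0.27, 0.50, 0.27, 0.29 and 2.16. Its 6 hormone horns ranged from 0.66 to 3.70 (median 1.55). Every hormone horn lay above every control horn, whereas 3 of 5 placebo horns lay within the control range and those of gilts 38 and 47 above it. SLC3A1 rose by 1.56 ± 0.41 log2 units in hormone horns (difference ± SE, 6 horns against 8; 2.95-fold, limma adjusted p = 0.0217) and differed by 0.71 ± 0.42 in placebo horns (adjusted p = 0.317). All 4 of its probes passed, with rises of 1.47 to 1.86. Without gilt 9, 14 or 28 it no longer passed (highest adjusted p 0.0797), and without gilt 40, the highest horn, the rise was 1.17 (adjusted p = 0.024). SLC3A1 also did not pass when both horns of each control gilt were averaged.

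SLC7A9, the partner b0,+AT that SLC3A1 carries to the membrane, gave the most negative difference of all members without passing. SLC7A9 was 1.08 to 2.75 in control horns (median 2.26). Its placebo horns were at 3.18, 2.48, 0.99, 0.52 and -1.34 in gilts 36, 38, 41, 44 and 47. Its hormone horns ranged from -3.55 in gilt 40 to 2.82 in gilt 36 (median -0.30). The groups overlapped through gilts 36 and 38, and the range was wider in treated gilts. SLC7A9 differed by -2.27 ± 0.81 (adjusted p = 0.0746) in hormone horns and by -1.28 ± 0.83 (adjusted p = 0.362) in placebo horns, and its other probe differed by -2.29. With scan day as a term the fall passed (-2.49, adjusted p = 0.0445), and with slide as a term the direction turned (0.81). The slide value rests on gilts 36 and 9, the only treated and control gilts that shared a slide. Gilt 40 held both the highest SLC3A1 and the lowest SLC7A9 of the 19 arrays, and gilt 47 was highest in SLC3A1 and lowest in SLC7A9 among placebo horns. By fitted difference the 2 subunits thus lay on opposite sides of control gilts except with slide as a term, with a test passed for SLC3A1 alone. This did not hold in each gilt. In the hormone horn of gilt 36 both lay above all control horns, and in that of gilt 38 SLC7A9 (1.10) lay within the control range.

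SLC1A1, the glutamate and cysteine importer EAAT3, followed SLC3A1 in its direction. SLC1A1 spanned -4.20 to -1.86 in control horns (median -3.63), with gilt 14 and one horn of gilt 28 near the upper end. Its values in placebo horns were -3.05, -3.68, -1.70, -2.31 and -0.29 in the same order of gilts, and hormone horns lay between -2.96 and -0.06 (median -1.63). Gilts 40 and 47 were highest, and the hormone horns of gilts 36 and 38 lay inside the range of the control horns. The brightest probe differed by 1.62 ± 0.57 (adjusted p = 0.0722), while the other 3 of its 4 probes passed with rises of 1.31, 1.60 and 1.73 (adjusted p from 0.0288 to 0.0378).

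SLC7A2, the arginine and lysine importer CAT2, ran from -1.03 to 1.37 in control horns (median 0.29) and from -2.73 to 0.54 in hormone horns (median -1.13), and its placebo horns were at -0.30, -1.85, 0.54, -1.18 and -2.01. Both horns of gilt 41 were at 0.54, within the control range, and both horns of gilt 47 were lowest. The difference of -1.18 ± 0.50 in hormone horns did not pass (adjusted p = 0.131), nor did that of -1.16 ± 0.51 in placebo horns (adjusted p = 0.178). SLC7A1, the other basic amino acid importer CAT1 was 1.50 to 2.33 in 5 hormone horns and 4.01 in gilt 36, against 2.06 to 2.99 in control horns. Its difference was -0.16 ± 0.36 (adjusted p = 0.814), and a second probe differed by 0.53, so its direction rests on the probe. The second probe was far dimmer (mean log2 -5.82, against 2.34) and well above background on 16 arrays. SLC7A3, the third cationic carrier, was well above background on 6 arrays spread over all 4 groups.

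SLC38A2, the sodium-coupled neutral amino acid importer SNAT2, showed how a call can depend on the probe. Its brightest probe lay at 3.57 to 4.07 in control horns (median 3.80), at 3.79, 4.18, 4.42, 3.90 and 4.33 in placebo horns and at 3.52 to 4.38 in hormone horns (median 4.07), with overlap in every group. The difference was 0.21 ± 0.14 (adjusted p = 0.33). Of its 8 probes 5 passed as higher in hormone horns and 6 in placebo horns, and all 8 differences were positive in both, at 0.21 to 0.56 in hormone horns. SLC7A7, the y+LAT1 subunit that releases basic amino acids, likewise passed with 2 of 4 probes (0.66 and 0.90) but not with its brightest (0.20 ± 0.19, adjusted p = 0.529). For the 12 genes of the class, which also holds the creatine carrier SLC6A8, the median difference was -0.15 in hormone horns and -0.02 in placebo horns.

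**Figure D2:**
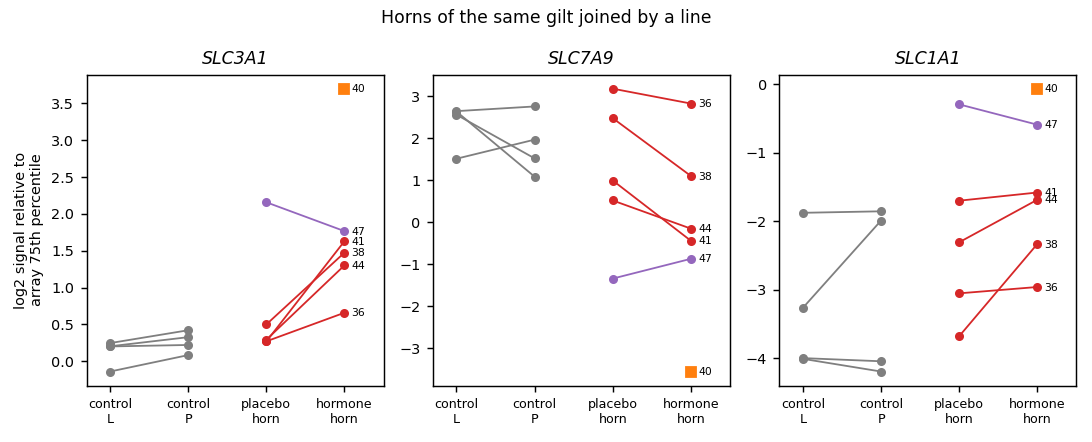
Log2 signal relative to the array's 75th percentile for SLC3A1, SLC7A9 and SLC1A1, with lines joining the horns of the same gilt (grey, control gilts; red, treated gilts; purple, gilt 47; orange square, the hormone horn of gilt 40, whose placebo horn was not analysed here). In gilts 36, 38, 41 and 44 the line from placebo to hormone horn rises for SLC3A1 and falls for SLC7A9, in gilt 47 it does the reverse, and gilt 40 is the extreme of both.

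Of the ion carriers, 2 of 12 passed, both higher, and the class median was 0.29. SLC4A4, the sodium bicarbonate cotransporter NBCe1 that loads epithelia with bicarbonate for secretion, lay between -5.10 and -4.26 in control horns (median -4.55). Its placebo horns were at -4.11, -3.69, -4.29, -3.93 and -2.55, and its hormone horns between -4.49 and -2.54 (median -3.28). The hormone horn of gilt 36 fell inside the control range and the other 5 lay above it. SLC4A4 rose by 1.26 ± 0.36 in hormone horns (2.40-fold, limma adjusted p = 0.0306) and differed by 0.85 ± 0.37 in placebo horns (adjusted p = 0.174). It no longer passed without any one of gilts 9, 14, 28, 38 and 44.

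SLC12A4, the potassium chloride cotransporter KCC1 that lets cells lose salt and water, lay between -1.68 and -1.18 in control horns (median -1.44). It was -0.91, -0.67, -0.75, -1.58 and -0.31 in placebo horns and -0.84 to -0.22 in hormone horns (median -0.63). All 6 hormone horns were above all control horns, as were all placebo horns but that of gilt 44. The rise was 0.87 ± 0.20 (1.82-fold, limma adjusted p = 0.0121), and it was lost without gilt 14 or 28 (highest adjusted p 0.0568).

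SLC9A2, the sodium-proton exchanger NHE2 of epithelial surfaces, differed downwards. Control horns lay between -2.79 and -0.86 (median -1.21), the lowest being the P horn of gilt 9. Placebo horns were at -1.14, -1.96, -1.94, -2.06 and -2.24, and hormone horns at -3.16 to -1.67 (median -2.46). Only the horn of gilt 41 lay below all control horns, and the difference of -0.96 ± 0.34 did not pass (adjusted p = 0.0759) and turned with slide as a term (0.34). SLC26A3, the chloride bicarbonate exchanger DRA, was well above background on 5 of 6 hormone horns, 2 of 5 placebo horns and 3 of 8 control horns. Its hormone horns reached -5.46 in gilt 36, -5.49 in gilt 40 and -6.46 in gilt 47, above the highest control horn at -6.63, and the difference of 0.87 ± 0.38 did not pass (adjusted p = 0.148).

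Among metal carriers, 1 of 14 rose and 1 fell. SLC39A7, the zinc importer ZIP7 of the endoplasmic reticulum, was 2.29 to 3.23 in control horns (median 2.57), with both horns of gilt 9 above 3. Placebo horns were close together at 3.38, 3.47, 3.30, 3.29 and 3.22, and hormone horns spread from 2.95 to 3.85 (median 3.38). Gilts 36, 41 and 44 lay above all control horns, and gilts 38, 40 and 47 did not. SLC39A7 rose by 0.69 ± 0.19 (1.61-fold, limma adjusted p = 0.0282), and all 4 of its probes passed with rises of 0.56 to 0.85. The call was lost without any one of gilts 14, 28, 36, 41, 44 and 46 (highest adjusted p 0.122).

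SLC30A2, a zinc exporter of vesicles, lay between -1.32 and 0.88 in control horns (median -0.01). Its placebo horns were at -0.78, -1.05, 0.12, -1.43 and -2.41 and its hormone horns at -1.87 to -1.22 (median -1.28). Hormone horns were close together at the low end of a wide control range, which they overlapped through gilt 14. SLC30A2 fell by 1.26 ± 0.39 (2.40-fold, limma adjusted p = 0.0432) and no longer passed without any one of gilts 9, 14, 28, 36, 38, 40 and 44 (highest adjusted p 0.179). SLC11A2, the iron importer DMT1, was -1.76 to -0.42 in control horns (median -1.41) and -1.13 to 0.72 in hormone horns (median -0.60), and placebo horns were at -0.73, -1.12, 0.54, -1.05 and 0.73. Both horns of gilts 41 and 47 stood above all other horns, and the difference of 1.00 ± 0.33 did not pass (adjusted p = 0.0564).

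The other 7 members of the SLC30 zinc exporters differed by at most 0.34, and of them SLC30A5 passed with its other probe (0.37, adjusted p = 0.0474). The copper importer SLC31A1 and the magnesium carrier SLC41A1 each had 5 of 6 hormone horns above all control horns, with differences of 0.52 ± 0.29 (adjusted p = 0.268) and 0.41 ± 0.22 (adjusted p = 0.249). In placebo horns the median difference of the class was 0.35, against 0.26 in hormone horns.

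Of 9 mitochondrial carriers, 1 rose and 1 fell. SLC25A3, which brings phosphate into the matrix for synthesis of ATP, lay between 4.74 and 5.28 in control horns (median 5.05). In placebo horns it was 5.44, 5.62, 5.26, 5.34 and 5.53, and in hormone horns 5.38 to 6.01 (median 5.69). All 6 hormone horns and 4 of 5 placebo horns were above all control horns. SLC25A3 rose by 0.69 ± 0.15 (1.61-fold, limma adjusted p = 0.00778), the smallest adjusted p of the family, and differed by 0.46 ± 0.15 in placebo horns (adjusted p = 0.0813). Its 10 probes all passed in hormone horns, with rises of 0.69 to 0.92, and 6 passed in placebo horns. It was the 1 member that passed whichever of the 10 gilts was left out (highest adjusted p 0.0442).

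SLC25A27, the brain uncoupling protein UCP4, went the other way. It lay between 1.04 and 1.85 in control horns (median 1.49), and hormone horns spread from -0.53 to 1.01 (median 0.24). The placebo horns were at 1.10, 0.48, 0.41, 0.01 and -1.28, with gilt 47 lowest. Every hormone horn lay below every control horn, and only the placebo horn of gilt 36 reached the control range. SLC25A27 fell by 1.14 ± 0.32 in hormone horns (2.21-fold, limma adjusted p = 0.0297) and by 1.24 ± 0.33 in placebo horns (adjusted p = 0.0437). The first call was lost without any one of gilts 9, 14, 28, 41, 44 and 46 (highest adjusted p 0.0975).

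SLC25A15, the ornithine carrier of the urea cycle, had 5 of 6 hormone horns (-0.22 to 0.51, median 0.09) above the highest control horn (-0.06), and its difference of 0.48 ± 0.19 did not pass (adjusted p = 0.106). SLC25A25, an ATP-Mg and phosphate carrier, was well above background on 5 hormone horns, 5 placebo horns and 3 control horns, and differed by 1.00 ± 0.42 in hormone horns (adjusted p = 0.132) and 1.44 ± 0.43 in placebo horns (adjusted p = 0.0613). The ATP/ADP exchanger SLC25A6 differed by 0.00 ± 0.15.

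None of the 6 sugar carriers passed. SLC5A1, the sodium glucose cotransporter SGLT1, varied widely between gilts. Control horns lay at 1.67 and 1.50 in gilt 9, 2.87 and 2.59 in gilt 14, 2.34 and 2.19 in gilt 28 and 0.61 and 0.65 in gilt 46 (L, then P). Placebo horns were at 1.26, 0.56, 0.80, 1.27 and 1.60, and hormone horns at 0.23 to 2.41 (median 1.54). The horns of a control gilt agreed to within 0.28 log2 units, while the 4 control gilts spanned over 2. The difference was -0.38 ± 0.44 in hormone horns (adjusted p = 0.618) and -0.83 ± 0.45 in placebo horns (adjusted p = 0.271). SLC2A4, the insulin-responsive glucose carrier GLUT4, was -3.23 to -2.31 in control horns (median -2.51) and -2.44 to -0.45 in hormone horns (median -2.05), highest in gilt 40. Its difference of 0.75 ± 0.28 did not pass (adjusted p = 0.0936), and its other probes differed by -0.06 and 0.41. SLC2A2, the glucose carrier GLUT2 of liver and gut, was well above background on 4 of 6 hormone horns, 1 of 5 placebo horns and 1 of 8 control horns. It met the limit of 4 arrays only through its hormone horns, so this pattern is no sign of a rise. Its difference was 0.39 ± 0.27 (adjusted p = 0.382). SLC5A4, SLC5A10 and SLC5A11 differed by -0.13, -0.04 and -0.12. SLC2A1 and SLC2A3, the glucose carriers best known from placenta, had no probe named through RefSeq and were not analysed here.

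The lactate and pyruvate carrier SLC16A1 (MCT1), the sole carboxylate carrier measured, was higher on some of its probes. Its brightest probe lay at -2.32 to -1.92 in control horns (median -2.05), at -2.56, -1.03, -1.81, -1.88 and -1.90 in placebo horns and at -1.94 to -0.82 in hormone horns (median -1.59). Of the hormone horns 5 were above all control horns, and gilt 47 was within their range. The difference was 0.57 ± 0.20 (adjusted p = 0.0734), while the other 2 probes rose by 1.25 (adjusted p = 0.00515) and 1.57 (adjusted p = 0.00419). BSG, the membrane protein that carries SLC16A1 to the cell surface, rose by 0.90 ± 0.17 (limma adjusted p = 0.00515).

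Other classes gave 2 calls. SLC44A4, which carries choline and thiamine pyrophosphate in epithelia, was 4.01 to 4.51 in control horns (median 4.20). Placebo horns were at 4.75, 4.90, 4.89, 4.54 and 4.69, and hormone horns at 4.41 to 5.43 (median 4.90). All 5 placebo horns and 5 of 6 hormone horns were above all control horns, the exception being gilt 47. SLC44A4 rose by 0.67 ± 0.16 in hormone horns (1.59-fold, limma adjusted p = 0.0139) and differed by 0.53 ± 0.17 in placebo horns (adjusted p = 0.0699), and all 5 of its probes passed in hormone horns, with rises of 0.58 to 1.12. The call was lost without gilt 9 or 28 (highest adjusted p 0.0629).

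SLC27A1, the fatty acid importer FATP1, lay between 0.44 and 0.78 in control horns (median 0.54). Its placebo horns were at 0.27, -0.07, 0.23, -0.26 and -0.45, and its hormone horns at -0.10 to 0.55 (median 0.06). All placebo horns were below all control horns, and so were all hormone horns but that of gilt 36. It fell by 0.45 ± 0.14 in hormone horns (1.37-fold, limma adjusted p = 0.0406) and by 0.62 ± 0.14 in placebo horns (adjusted p = 0.0294). Its other 2 probes differed by 0.19 and -0.07 in hormone horns and did not pass, so the fall rests on 1 probe of 3. Those 2 probes were far dimmer (mean log2 -4.19 and -5.07, against 0.26), though well above background on all 19 arrays. In hormone horns the call was lost without any one of gilts 9, 14, 28, 38, 40, 41, 44 and 46 (highest adjusted p 0.132).

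The vitamin C carrier SLC23A2 differed by 0.41 ± 0.23 (adjusted p = 0.267) and the peptide carrier SLC15A2 by -0.47 ± 0.47 (adjusted p = 0.559). Of 4 carriers of nucleosides and nucleotide sugars, SLC35A3, which brings UDP-N-acetylglucosamine into the Golgi, was -0.19 to 0.83 in control horns and 0.41 to 1.52 in hormone horns, with overlap through gilts 40, 46 and 47, and its difference of 0.67 ± 0.22 did not pass (adjusted p = 0.0518). The nucleoside carriers SLC29A1 and SLC28A1 differed by -0.28 ± 0.14 (adjusted p = 0.2) and -0.36 ± 0.36 (adjusted p = 0.551); for SLC29A1 an outlier spot was left out in the L horn of gilt 28. Of 7 SLC22 carriers of organic ions none passed by its brightest probe, and the median was -0.06. SLC22A13, a urate and organic anion carrier, differed by -0.34 ± 0.17 (adjusted p = 0.212) and SLC22A4, a carnitine and ergothioneine carrier, by 0.22 ± 0.18 (adjusted p = 0.46). SLC22A17, a receptor for lipocalin-2, differed by -0.19 ± 0.19 (adjusted p = 0.568) with an outlier spot left out in gilt 40, and its other probe fell by 0.85 (adjusted p = 0.0231). The scaffolds SLC9A3R1 and SLC9A3R2 differed by 0.27 ± 0.17 (adjusted p = 0.319) and 0.51 ± 0.20 (adjusted p = 0.103), and the other probe of SLC9A3R2 rose by 0.74 (adjusted p = 0.0297).

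**Figure D3:**
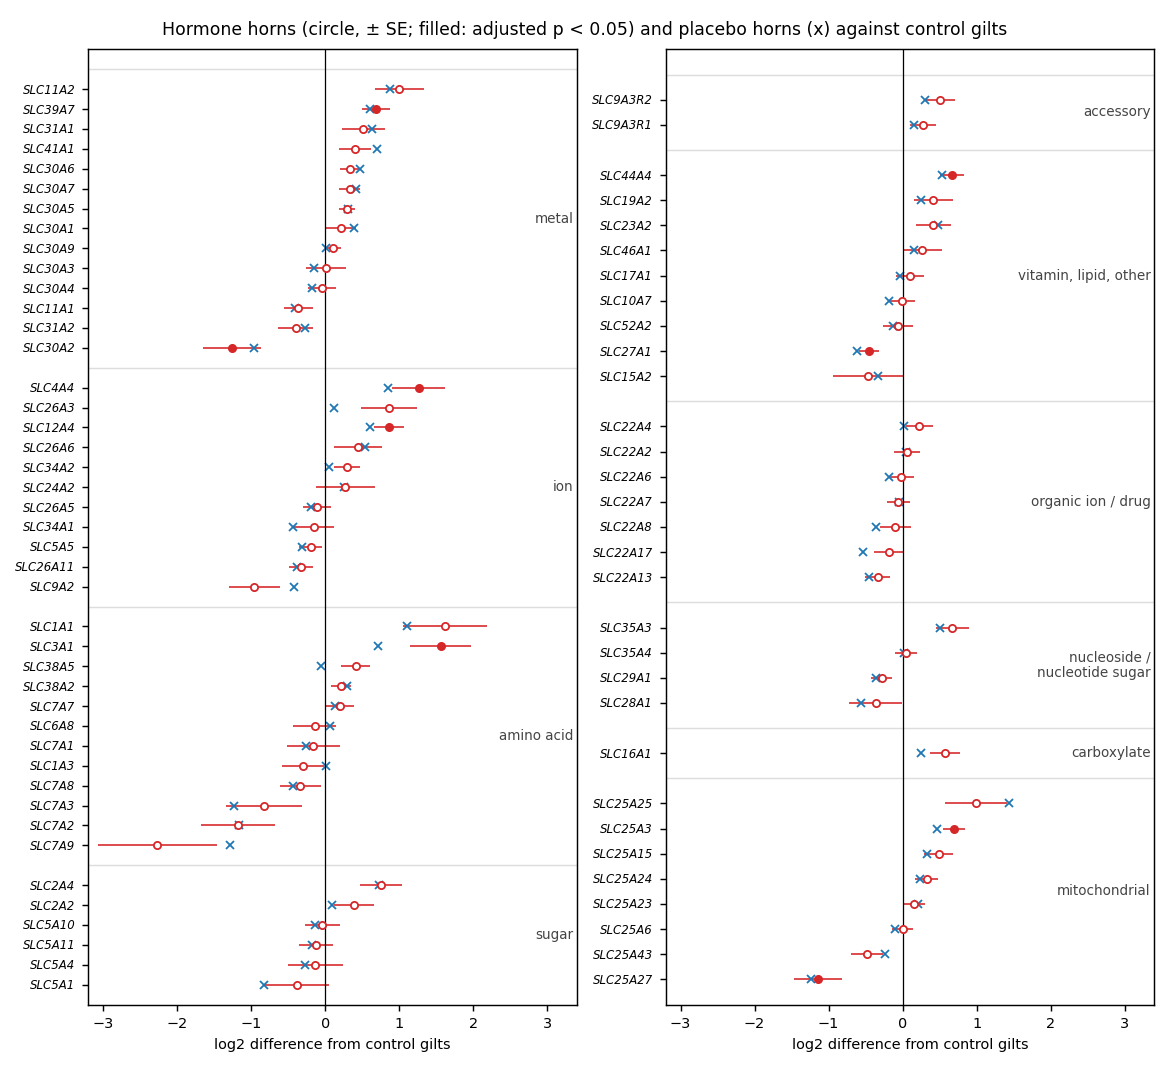
Log2 difference from control gilts for 74 of the 76 members by substrate class, with hormone horns as circles ± SE (filled where the limma adjusted p is under 0.05) and placebo horns as crosses. Of the circles, 9 are filled, 6 to the right of 0 and 3 to the left, and SLC7A9 at -2.27 and SLC1A1 at 1.62 are the outermost and unfilled.

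Over the family, 3 members had all hormone horns above all control horns and 1 had all below. Of named genes 7.97% had all above and 1.23% all below, so the members' counts were near or under those of other genes. Of 42 members with more than 1 probe, 30 had differences of the same sign on all probes in hormone horns. All probes passed for SLC25A3, SLC44A4, SLC39A7 and SLC3A1. SLC4A4, SLC12A4, SLC30A2 and SLC25A27 had no other tested probe, so their calls could not be compared between probes. The sign differed between probes for 12 members, among them SLC11A1, the iron carrier NRAMP1 of phagocytes (-0.36 and 1.38), SLC29A1 (-0.28 and 0.66) and SLC5A1 (-0.45 to 0.22).

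**Figure D4:**
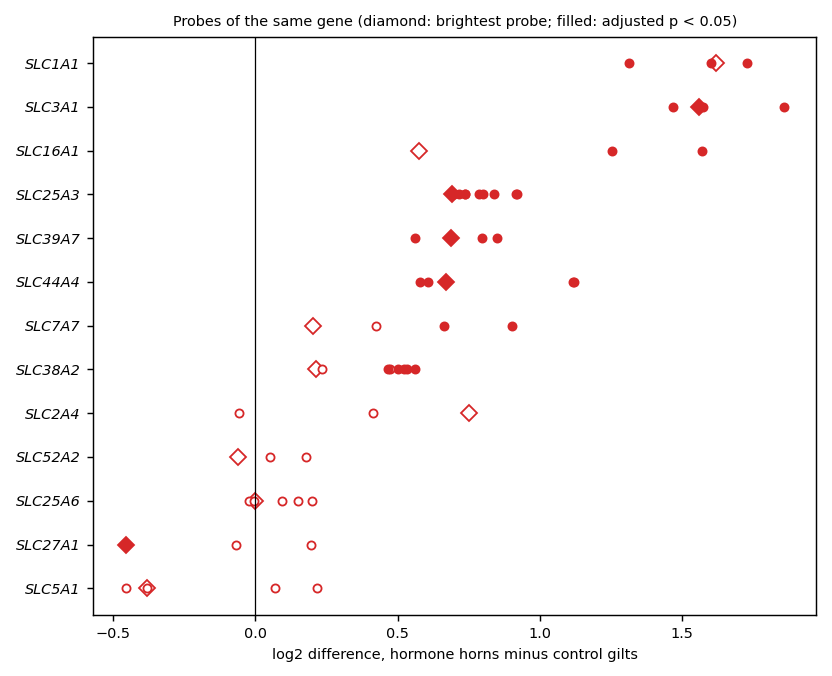
Log2 difference between hormone horns and control gilts for each probe of 13 members with at least 3 probes; diamonds are the brightest probe of a gene and filled symbols passed (limma adjusted p under 0.05). The probes of SLC3A1, SLC25A3, SLC39A7 and SLC44A4 are all filled, while SLC1A1, SLC16A1, SLC38A2 and SLC7A7 have an unfilled diamond beside filled probes.

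Scan day and slide bear on these calls, since each scan day held 1 or 2 control gilts and nearly every slide 1 gilt. Within the 3 scan days 0 members passed on each (limma; 16, 20 and 3 at an unadjusted p under 0.05), and the members' median difference was 0.28, 0.14 and -0.02. The 9 genes kept their direction on each day. They were chosen because they passed over these same arrays, so this is no independent check. Control gilt 9 stood alone on day 1 and control gilt 46 on day 3. SLC3A1 differed by 1.01, 2.37 and 1.41 on days 1, 2 and 3, and SLC12A4 by 0.86, 0.85 and 0.72. SLC25A3 gave 1.01, 0.71 and 0.27, SLC44A4 0.86, 1.01 and 0.11, SLC39A7 0.57, 0.89 and 0.33, and SLC4A4 1.07, 1.36 and 1.20. The 3 genes that fell had -1.09, -1.02 and -1.22 (SLC25A27), -2.29, -1.03 and -0.58 (SLC30A2) and -0.38, -0.43 and -0.60 (SLC27A1). With scan day as a term 11 members passed, 9 of them the same. Only slide 6 held both a control gilt (9) and a treated gilt (36). With slide as a term, differences from control gilts thus rest on those gilts and are no check over all gilts. Under that term 9 members passed, 3 of them the same, and SLC7A9, SLC9A2, SLC28A1, SLC7A1 and SLC38A2 turned direction. Scaled on the median of RefSeq probes in place of the 75th percentile, 3 members passed as higher and 9 as lower, against 6 and 3, the median of all probes moved to -0.21, and SLC4A4, SLC39A7 and SLC44A4 no longer passed. With both horns of a control gilt averaged and the gilt block dropped, 3 members passed, SLC12A4, SLC25A3 and SLC44A4. There SLC3A1, SLC4A4, SLC39A7, SLC30A2, SLC25A27 and SLC27A1 no longer passed. With a gilt left out, 1 member passed without gilt 28, 2 without gilt 14, and 4 each without gilts 9 and 44. With a term for how far RefSeq probes exceed contig probes on each array, 0 members passed (limma, 4 at an unadjusted p under 0.05).

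The horns that received vehicle in treated gilts were set against control gilts next, to see how far the difference extended to the other horn of the same animals. Of 76 members 2 passed, SLC25A27 and SLC27A1, both lower (values above), against 4.49% of all probes and 4.55% of named genes. The other genes that passed in hormone horns differed in the same direction in placebo horns without passing. Placebo differences not given above were 0.60 for SLC12A4, 0.61 for SLC39A7 and -0.96 for SLC30A2 (limma adjusted p 0.0943, 0.0784 and 0.161). The median difference was 0.02 over members and 0.08 over named genes, and 23 members had an unadjusted p under 0.05. By probes other than the brightest, SLC38A2 and SLC25A3 passed with 6 probes each, SLC44A4 with 2, and SLC16A1, SLC22A17, SLC30A6 and SLC39A7 with 1 each. This comparison and the first share their control gilts, which by itself tends to align their directions. The 2 calls were few and unstable: 0 passed (limma, 13 to 26 at an unadjusted p under 0.05) without gilt 9, 14, 28, 38 or 47, with control horns averaged or with only the groups compared in the model, and 11 passed (9 higher, 2 lower) without the gilt block.

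Within treated gilts, the hormone horn was set against the placebo horn, which asks how the horn given hormones differed from the other horn of the same animal. None of the 76 members passed (limma, 7 at an unadjusted p under 0.05), and 0.00256% of all probes did. Differences were positive for 55 members, or 72.4%, and for 62.4% of all probes, with medians of 0.10 and 0.06. All 6 sugar carriers, 10 of 12 ion carriers and 6 of 14 metal carriers were on the positive side.

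SLC3A1 had the most positive difference, with 0.39, 0.98, 1.36, 1.01 and -0.39 between the horns of gilts 36, 38, 41, 44 and 47. Its horns marked P and L in control gilts differed by 0.02 to 0.22. The difference was clearest in gilts 38, 41 and 44 and went the other way in gilt 47, whose placebo horn was already high. The fit gave 0.85 ± 0.29 (5 pairs and the hormone horn of gilt 40; limma adjusted p = 0.362). SLC7A9 had the most negative difference, at -0.35, -1.38, -1.43, -0.67 and 0.47 in the same gilts, against -1.55 to 0.45 between control horns, and -0.99 ± 0.57 in the fit (adjusted p = 0.56). For SLC7A9 the horns of control gilts thus differed as much as those of treated gilts.

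SLC38A5, the glutamine and histidine carrier SNAT5, exceeded its placebo horn value in the hormone horn of 5 of 5 gilts, by 0.52, 0.10, 0.26, 0.81 and 0.92, and had the smallest p of the members (0.47 ± 0.14, limma adjusted p = 0.289). Control horns marked P exceeded those marked L in 4 of 4 gilts as well, by 0.07 to 0.40, and since placebo horns were all marked L and their hormone horns P, horn mark and treatment coincide in these 5 pairs. SLC9A2 was lower in 5 of 5 hormone horns, by -0.56, -0.62, -1.21, -0.44 and -0.18 (-0.54 ± 0.24, adjusted p = 0.481), against -1.47 to 0.65 in control gilts. SLC26A3 was higher by 2.12 in gilt 36 and 0.90 in gilt 47 and by 0.00 to 0.27 in the other 3 (0.74 ± 0.27, adjusted p = 0.389), and lost its direction under another background correction (-0.07).

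SLC1A1 differed by 0.51 ± 0.40 (adjusted p = 0.65), with 1.35 in gilt 38 the highest, and SLC5A1 by 0.45 ± 0.31 (adjusted p = 0.61), with 1.41 and 1.61 in gilts 38 and 41 and -0.58 in gilt 44. On the negative side, SLC25A25 differed by -0.44 ± 0.30 (adjusted p = 0.604), the glutamate importer SLC1A3 by -0.31 ± 0.20 (adjusted p = 0.592) and SLC30A2 by -0.31 ± 0.28 (adjusted p = 0.692), each with horn differences of both signs. Between the P and L horns of control gilts 0 members passed (limma, 1 at an unadjusted p under 0.05), and the horn difference of treated gilts minus that of control gilts also gave 0 (limma, 1 at an unadjusted p under 0.05, SLC9A3R2). For SLC3A1 that difference of differences was 0.71.

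Proteins that support solute carriers were taken from a list of 33, of which 14 were measured, and 6 rose and 1 fell in hormone horns. Of named genes 13.1% passed as higher and 2.43% as lower. The list was chosen with earlier results of these data known, so its count is no measure of such proteins in general. SGK1, a kinase that raises the activity of many sodium-coupled carriers and channels, rose by 1.72 ± 0.30 (limma adjusted p = 0.00286), and also rose in placebo horns, by 1.54 ± 0.30 (adjusted p = 0.021). The outer mitochondrial membrane channels VDAC1 and VDAC2 rose by 0.71 ± 0.16 (adjusted p = 0.0109) and 0.59 ± 0.14 (adjusted p = 0.015), and FXYD3, a regulator of the sodium pump, by 1.32 ± 0.35 (adjusted p = 0.0231). ATF4, which drives amino acid carrier genes in stress, rose by 0.31 ± 0.10 (adjusted p = 0.0483) and in placebo horns by 0.39 ± 0.10 (adjusted p = 0.0399). FXYD2, the kidney regulator of the sodium pump, fell by 2.58 ± 0.72 (adjusted p = 0.0282), while the pump subunit ATP1B1 differed by -0.33 ± 0.25 and did not pass (adjusted p = 0.432). The median of the 14 was 0.27 in hormone horns and 0.24 in placebo horns. Of 9 SLCO carriers, which move organic anions and prostaglandins, SLCO1A2 and SLCO2A1 were measured and neither passed, with the prostaglandin carrier SLCO2A1 at 0.30 ± 0.16 (adjusted p = 0.25).

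Gilt 47 held extreme values of several members, for some of them in both horns. Its T and natural killer cell marker medians were 2.40 (placebo) and 2.54 (hormone) above control horns, against -0.19 to 0.84 in the other treated horns. The gilt was highest of the placebo horns in SLC3A1, SLC4A4, SLC12A4 and SLC1A1 and lowest in SLC25A27, SLC27A1, SLC30A2, SLC7A2 and SLC7A9. Of the hormone horns its own was likewise highest in SLC12A4 and lowest in SLC25A27, SLC27A1 and SLC7A2. In SLC30A2 it was the highest hormone horn (-1.22), and in SLC4A4 it lay within the others (-3.37). Gilt 40 held the extreme hormone horn of SLC3A1, SLC1A1 and SLC7A9. The part of its immune cells in these values was not tested, and without gilt 47 the hormone horns gave 11 members, including all 9 above.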

How the data were processed

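Endometrial RNA was hybridised to one-colour Agilent arrays (19 arrays, 10 gilts). Per the file headers, the authors' deposited scanner files hold linear intensity values from Feature Extraction 10.7.3.1, background-subtracted within arrays (the submitters' processing notes name version 9.1). The authors' deposited value table holds log2 values of unstated centring and was used as an alternative. Control spots and outlier flags were left out, spots of a probe averaged, and log2 signals set against each array's 75th percentile. The 39095 probes that reached the well-above-background mark on 4 or more arrays went into limma 3.58.1 (statmod 1.5.0, R 4.3.3): 4 groups, gilt as a random block (correlation 0.536), two-sided, Benjamini-Hochberg over all probes. Same-numbered arrays came from the same gilt (correlation of deviations 0.336 to 0.795 in treated and 0.403 to 0.628 in control gilts). The fit counts arrays, not gilts, so adjusted p against control gilts can be too small. Fits were tested on simulated data.

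Symbols came through RefSeq accessions matched to the Sscrofa11.1 gene table, and no coordinates were used. Members, lists and substrate classes were chosen with earlier results of these data known, and the class of the 2 scaffolds was set after the files were read. Named are the members that passed, the 5 highest and 5 lowest between horns, up to 3 per class by p, members known from the uterus, and, described after their values were seen, others mentioned for their probes or ranges. Of 16 uterine candidates listed, SLC2A1, SLC2A3, SLC7A5, SLC3A2, SLC1A5, SLC40A1, SLC9A3 and SLC26A4 were not analysed here. Values of a few genes are not reported here. No scanner file had a mean signal column, so normexp used median signals. Alternatives were background correction, normalization, filter, probe choice, block, scan day, slide and leaving out each gilt.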

Additional observations from a re-analysis of the deposited data

Results flagged for a closer look

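In groups of 4 to 6 arrays, 135 groups of named members were tested for 1 array far from the others, and 11 stood apart, where chance alone gives about 1 in 20. In SLC3A1 these were the hormone horn of gilt 40 (3.70, others 0.66 to 1.77), the placebo horn of gilt 47 (2.16, others 0.27 to 0.50) and the L horn of control gilt 9 (-0.14, others 0.20 to 0.25). In SLC7A1 they were the hormone horn of gilt 36 (4.01, others 1.50 to 2.33) and the P horn of control gilt 28 (2.06). SLC2A4 was apart in the hormone horn of gilt 40 (-0.45, others -2.44 to -1.70) and SLC22A13 in that of gilt 47 (-5.63). SLC9A2 was apart in the placebo horn of gilt 36 (-1.14, others -2.24 to -1.94). In control horns marked L, SLC7A9 was low in gilt 14 (1.51), SLC25A27 was low in gilt 9 (1.04) and SLC22A17 was high in gilt 9 (3.38, others 3.28). No explanation was tested for any of these arrays.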

How the results depend on the processing

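Against control gilts, hormone horns gave 9 members, 1 to 12 with a gilt or array left out, 14 with no replicate block, 3 with control horns averaged, and 0 within each scan day and with the RefSeq minus contig term (limma, 3 to 20 at an unadjusted p under 0.05). With slide as a term 9 passed, 3 of them the same. For hormone and placebo horns alike, that fit against control gilts rests on gilts 36 and 9, which shared a slide. Placebo horns gave 2 members, 0 to 3 with a gilt or array left out, 11 with no replicate block, 7 with the mean of a gene's probes, 5 with RefSeq median scaling, 4 with slide and 1 with scan day as a term. They gave 0 with control horns averaged, within each scan day, with only the groups compared and with the RefSeq minus contig term (limma, 1 to 26 at an unadjusted p under 0.05). The comparisons between horns gave 0 under every alternative run (limma, 0 to 17 at an unadjusted p under 0.05), including the gilt as a fixed replicate block. The RefSeq minus contig term splits control from treated horns without overlap, so its 0 against control gilts does not test that difference. The causes were not tested.

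Among named genes, 25 values changed sign, none in a comparison that the member had passed. In hormone horns against control gilts, slide as a term gave SLC7A9 0.81, SLC9A2 0.34, SLC28A1 0.18, SLC7A1 0.65 and SLC38A2 -0.10. The RefSeq minus contig term gave SLC25A15 -0.0468, SLC9A3R1 -0.0287, SLC29A1 0.0819, SLC28A1 0.75, SLC23A2 -0.0711, SLC5A1 0.0747 and SLC7A1 0.16. The mean of a gene's probes gave SLC29A1 0.68, SLC22A4 -0.17 and SLC7A1 0.19. Within scan days, SLC9A3R1 was -0.11 (day 2), SLC5A1 1.40 (day 3) and SLC7A1 0.45 (day 1). The deposited value table gave SLC22A17 0.18, RefSeq scaling SLC38A2 -0.00468 and normexp SLC2A2 -0.0554. Between horns, normexp gave SLC26A3 -0.0671, scan day 1 SLC5A1 -0.36, and scan day 3 SLC1A3 0.10 and SLC30A2 0.48. The normexp on median signals was chosen after seeing the data. Of the other values, 940 kept their side of the threshold, 127 lost it and 34 gained it. SLC7A3, SLC26A3, SLC25A25 and SLC2A2, below background on 5 or more arrays, are limited by signal.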
